A study of Homo sapiens with 6 samples.

Results

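The 9 genes described here encode enzymes of the tricarboxylic acid cycle: CS, IDH3A, IDH3B, IDH3G, OGDH, SUCLA2, SUCLG1, FH and MDH2. They were chosen by gene symbol, with earlier results of these data known, and all 9 were found among the 24154 genes of the deposited table. The measurement is poly(A) RNA-seq of cells labelled HCT116, a colorectal cancer cell line, 48 h after a negative control siRNA (NC, 3 libraries) or an siRNA against CPT2 (siCPT2, 3 libraries). No other treatment or genotype is named, and nothing states whether replicates came from separate cultures, and every p-value therefore reflects the spread among these 6 libraries, which may be technical. The comparison asks how the transcripts of the cycle differ when CPT2, the mitochondrial enzyme that readies long-chain fatty acids for oxidation, is targeted.

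The tricarboxylic acid cycle runs in the mitochondrial matrix. It takes in acetyl-CoA, which fatty acid oxidation and pyruvate dehydrogenase both supply, releases the carbon as carbon dioxide and passes electrons to the respiratory chain as NADH and reduced flavin. In growing cells its intermediates also leave the matrix, citrate for lipid synthesis and oxaloacetate for aspartate.

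Total counts were 28353790 to 29449380 per library. The targeted gene, CPT2, had 27.1 ± 3.01 CPM in NC and 19.9 ± 1.23 CPM in siCPT2 (CPM, counts scaled to a common library size; SD, n = 3 each), with no overlap between the groups, but this missed the threshold over all genes (adjusted p = 0.338, edgeR). Replicate 1 of siCPT2 stood apart from the other libraries, with 76.6 on the first principal component against -44.6 to 16.03 in the other 5. The labelled cell type was checked against 9 markers of colorectal epithelium. KRT8 had 938 to 1432 CPM and KRT18 609 to 1220 CPM, but EPCAM had 2.68 to 4.31, CDH1 1.03 to 2.90 and KRT19 0.194 to 1.34 CPM. CDX1 and CDX2 had no count in any library, where a count of 0 (3 counts as the limit, counting error only) allows up to 0.118 CPM. The 9 markers summed to 1552 to 1811 CPM in NC and 1716 to 2658 CPM in siCPT2. Of 5 fibroblast markers COL1A1 had 57.0 to 128 CPM and the other 4 at most 3.79 CPM, with a summed level of 61.4 to 80.5 CPM in NC and 79.6 to 132 CPM in siCPT2. Of 3 endothelial markers CDH5 had 52.1 to 87.8 CPM and the other 2 at most 1.18 CPM, with a summed level of 72.8 to 89.3 CPM in NC and 53.6 to 70.2 CPM in siCPT2. The 5 leukocyte markers summed to at most 3.00 CPM and the 3 hepatocyte markers to at most 0.194 CPM in any library. Of the colorectal list, KRT20 had at most 0.130 CPM and VIL1 at most 0.107 CPM. The intestinal markers CDX1, CDX2, KRT20 and VIL1 were thus at or near 0. EPCAM and CDH1 were low, against the label, while KRT8 and KRT18 were high. No other cell type is named here, and the part of these levels in the results was not tested.

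None of the 9 cycle genes was called between the groups at an adjusted p under 0.05 (edgeR's quasi-likelihood test), where 0.0131% of the 15302 tested genes were. DESeq2 and limma-voom called 0 of the 9 as well, each with 2 of the 9 at an unadjusted p under 0.05, against 18.3% of all tested genes by DESeq2 and 15.2% by limma-voom. In bulk RNA, fewer cells of a type and less RNA per cell cannot be told apart. All 9 passed the filter on low counts, with 419 to 9860 counts per library. An unadjusted p under 0.05 was found for 2 of the 9, IDH3G and MDH2, against 14.5% of all tested genes. The groups did not overlap in 3 of the 9, IDH3G and MDH2 with siCPT2 higher and SUCLA2 with siCPT2 lower, against 24.4% of all tested genes. The median log2 fold change (siCPT2 over NC, here and below) was 0.014 over the 9 genes, with 5 higher and 4 lower, and 0.0083 over all tested genes. Their median absolute log2 fold change was 0.16, against 0.31 over all tested genes.

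**Figure D1:**
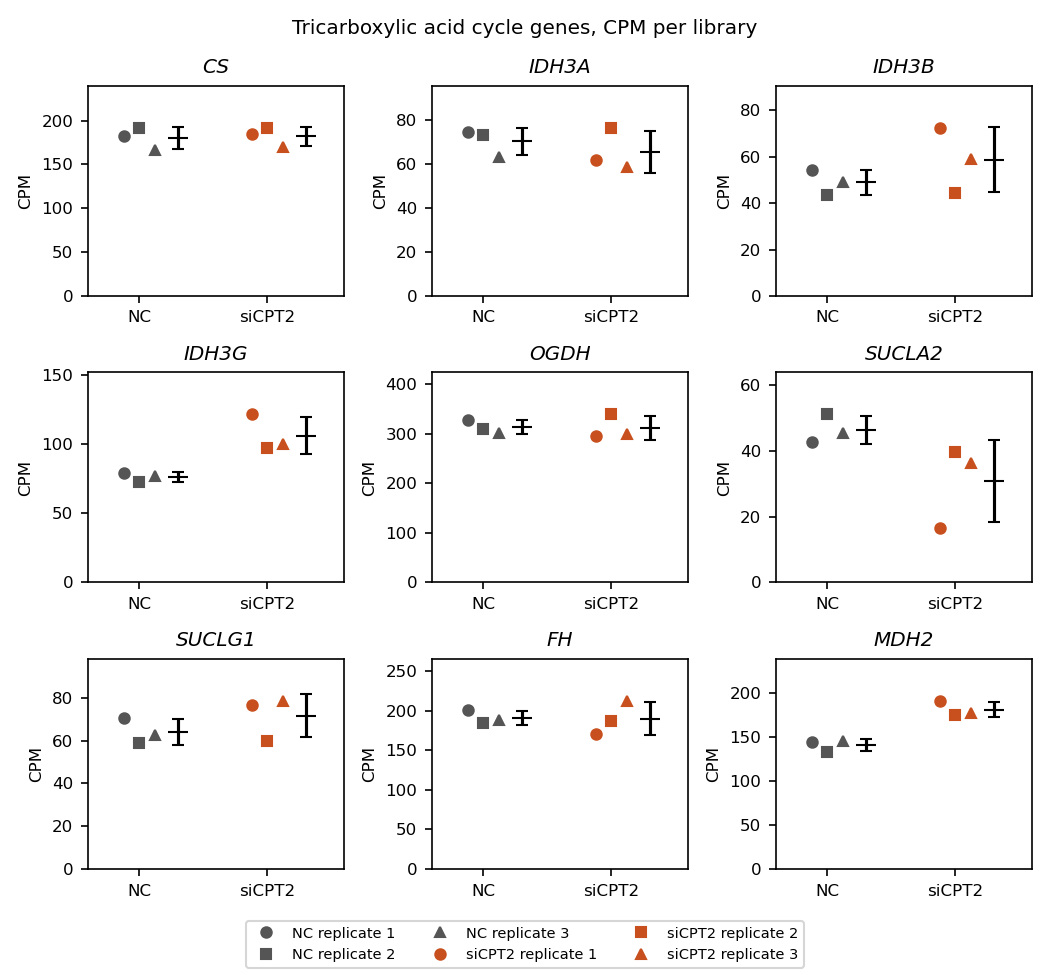
CPM of each cycle gene (vertical axis, from 0) in the 3 NC and 3 siCPT2 libraries, with the mean and SD of each group as a bar beside the points. The groups are apart for IDH3G, MDH2 and SUCLA2 and overlap for the other 6 genes, and SUCLA2 in siCPT2 replicate 1 (16.5 CPM) lies far below the rest.

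SUCLA2 and IDH3G had the lowest and the highest transcript GC content of the 9 genes, 42.0% and 61.1%. They also had the lowest and the highest log2 fold change, -0.59 and 0.48. With offsets for each library's trend on GC content and transcript length, these 2 genes had -0.47 and 0.056. The middle 120 coding bases of their principal GENCODE 29 transcripts are shown because fold changes over all genes followed GC content in these libraries. Whether GC content accounts for the value of either gene was not tested. Capitals mark G and C. The stretch covers coding bases 637 to 756 of SUCLA2 (42.5% GC) and 532 to 651 of IDH3G (60.0% GC), close to the 42.5% and 59.0% of the whole coding sequences.
SUCLA2: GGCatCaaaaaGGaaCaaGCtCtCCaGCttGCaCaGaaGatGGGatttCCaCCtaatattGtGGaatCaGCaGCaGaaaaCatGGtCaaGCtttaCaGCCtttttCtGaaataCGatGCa
IDH3G: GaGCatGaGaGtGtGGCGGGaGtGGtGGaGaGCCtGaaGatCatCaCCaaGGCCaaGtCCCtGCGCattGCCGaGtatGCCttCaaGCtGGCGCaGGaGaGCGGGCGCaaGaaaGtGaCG

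Citrate synthase, encoded by CS, joins acetyl-CoA to oxaloacetate and so opens the cycle. CS (ENSG00000062485) is a protein-coding gene on the minus strand of chromosome 12, positions 56271699 to 56300392 (GRCh38, as for all positions here). It had 182, 192 and 167 CPM in NC replicates 1, 2 and 3, and 185, 192 and 169.8 CPM in siCPT2 replicates 1, 2 and 3. The groups overlapped almost completely. The fold was 1.01 (95% interval 0.823 to 1.24; edgeR adjusted p = 0.956), with a log2 fold change of 0.014 and an SE of 0.13. Of its exon bases, 220 are shared on the same strand with AC073896.1, which had 1.37 ± 0.321 CPM in NC.

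The NAD-dependent isocitrate dehydrogenase, which turns isocitrate into alpha-ketoglutarate, has the catalytic subunit IDH3A and the subunits IDH3B and IDH3G. None of the 3 subunit genes passed. IDH3G had 79.5, 72.7 and 77.04 CPM in NC replicates 1 to 3, and 122, 97.1 and 100.4 CPM in siCPT2 replicates 1 to 3. Every siCPT2 library lay above every NC library, and siCPT2 replicate 1 was the highest. The log2 fold change was 0.48 (SE 0.15), a fold of 1.39 (95% interval 1.11 to 1.75), which missed the threshold (edgeR unadjusted p = 0.00987, adjusted p = 0.338). IDH3B had 54.2, 43.6 and 49.1 CPM in NC, and 72.4, 44.5 and 59.1 CPM in siCPT2. Replicate 2 of siCPT2 lay among the controls, and the other siCPT2 libraries above them (log2 fold change 0.26, SE 0.20, edgeR adjusted p = 0.463; 0.073 without siCPT2 replicate 1). IDH3A had 74.5, 73.5 and 63.4 CPM in NC, and 61.8, 76.5 and 58.6 CPM in siCPT2. Here replicates 1 and 3 of siCPT2 lay below all controls and replicate 2 above them (log2 fold change -0.10, SE 0.16, edgeR adjusted p = 0.717).

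The 3 genes lie apart in the genome. IDH3A (ENSG00000166411) is on the plus strand of chromosome 15 at 78131498 to 78171949, IDH3B (ENSG00000101365) on chromosome 20 (minus strand, 2658395 to 2664219) and IDH3G (ENSG00000067829) on chromosome X (minus strand, 153785766 to 153794523). IDH3G shares 278 exon bases, 10.2% of its exon positions, with SSR4 on the opposite strand. The SSR4 log2 fold change was 0.32 (SE 0.20), and where reads were counted without strand the 2 genes cannot be told apart there. IDH3A shares 2608 exon bases with ACSBG1 on the opposite strand, but ACSBG1 had 0.545 ± 0.559 CPM in NC.

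Alpha-ketoglutarate dehydrogenase releases the next carbon dioxide, and OGDH encodes its substrate-binding, rate-limiting component. OGDH (ENSG00000105953, plus strand of chromosome 7, 44606572 to 44709066) had 328, 309.7 and 301 CPM in NC replicates 1 to 3. In siCPT2 replicates 1 to 3 it had 295, 339 and 299.6 CPM. The siCPT2 libraries lay on both sides of the controls, with a fold of 0.994 (95% interval 0.815 to 1.21; edgeR adjusted p = 0.972).

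Succinyl-CoA synthetase makes succinate and is the one step of the cycle that forms a nucleoside triphosphate directly. SUCLG1 encodes its shared alpha subunit, SUCLA2 the beta subunit of the ATP-forming enzyme and SUCLG2 that of the GTP-forming enzyme. SUCLA2 (ENSG00000136143, minus strand of chromosome 13, 47745736 to 48037968) had 42.7, 51.1 and 45.4 CPM in NC replicates 1 to 3, and 16.5, 39.6 and 36.2 CPM in siCPT2 replicates 1 to 3. All siCPT2 libraries lay below all controls, replicate 1 by far the most. The log2 fold change was -0.59 (SE 0.30), a fold of 0.664 with a 95% interval of 0.417 to 1.06, and it did not pass (edgeR adjusted p = 0.341). Without siCPT2 replicate 1 it was -0.30 (SE 0.14, edgeR unadjusted p = 0.0571).

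SUCLG1 (ENSG00000163541, minus strand of chromosome 2, 84423523 to 84460045) had 70.7, 59.0 and 62.7 CPM in NC and 76.6, 60.1 and 78.6 CPM in siCPT2. Replicates 1 and 3 of siCPT2 lay above the controls and replicate 2 among them (log2 fold change 0.16, SE 0.16, edgeR adjusted p = 0.566). It was 0.062 with offsets for each library's trend on GC content and transcript length, and 0.10 without siCPT2 replicate 1. SUCLG2 had 46.7, 54.8 and 48.1 CPM in NC and 33.8, 46.0 and 43.6 CPM in siCPT2, all below the controls (log2 fold change -0.28, SE 0.17, edgeR adjusted p = 0.394). It was -0.086 with the offsets and -0.16 without siCPT2 replicate 1.

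Fumarase, encoded by FH, hydrates fumarate to malate. FH (ENSG00000091483, minus strand of chromosome 1, 241497603 to 241519761) had 201, 184 and 188 CPM in NC replicates 1 to 3. In siCPT2 replicates 1 to 3 it had 171, 187 and 212 CPM, from below all controls in replicate 1 to above them in replicate 3. The fold was 0.995 (95% interval 0.802 to 1.23; edgeR adjusted p = 0.977).

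Mitochondrial malate dehydrogenase, encoded by MDH2, regenerates oxaloacetate and closes the cycle. It also works in the malate-aspartate shuttle. MDH2 (ENSG00000146701, plus strand of chromosome 7, 76048051 to 76067508) had 144, 133 and 146 CPM in NC replicates 1 to 3, and 191, 175 and 177 CPM in siCPT2 replicates 1 to 3. The gap between the groups was wider than the spread within either. The log2 fold change was 0.36 (SE 0.13), a fold of 1.28 (95% interval 1.05 to 1.57), which missed the threshold (edgeR unadjusted p = 0.0194, adjusted p = 0.338). MDH2 shares no exon base with another annotated gene, as do OGDH, SUCLG1, FH and IDH3B.

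In the authors' deposited table, all 9 cycle genes were called normal, where 2.77% of 13635 tested genes were called up and 1.38% down. Its unadjusted p was under 0.01 for IDH3G (0.00403) and MDH2 (0.00889), against 5.43% of its tested genes. Their log2 fold changes there were 0.48 and 0.36, short of the fold of 1.5 that those calls required. SUCLA2 had -0.595 there, beyond that fold, but its unadjusted p by the authors' DESeq2 (0.0497) was above the 0.01 that the calls also required.

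Fold changes of all genes followed transcript GC content in these libraries, and the cycle genes lay at differing distances from that trend. By GC decile, the median over all genes was -0.28 on the log2 scale for that of SUCLA2 and FH, -0.18 for that of IDH3A, -0.11 for that of CS and SUCLG1, 0.014 for that of MDH2, 0.14 for that of IDH3B, 0.25 for that of OGDH and 0.34 for that of IDH3G. The trend was steepest in siCPT2 replicate 1, where the median against the NC mean was -1.03 in the lowest GC decile and 0.83 in the highest. In siCPT2 replicate 2 these medians were -0.041 and 0.098, and in siCPT2 replicate 3 they were -0.29 and 0.47. The controls had trends too, with -0.12 and 0.054 in NC replicate 1, 0.19 and -0.18 in NC replicate 2, and -0.054 and 0.13 in NC replicate 3. FH, at -0.0077, SUCLG1, at 0.16, CS, at 0.014, and IDH3A, at -0.10, lay above the medians of their deciles. OGDH, at -0.0087, lay below the median of its own. MDH2, SUCLA2, IDH3G and IDH3B lay farther out than their decile medians on the side of their fold change.

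**Figure D2:**
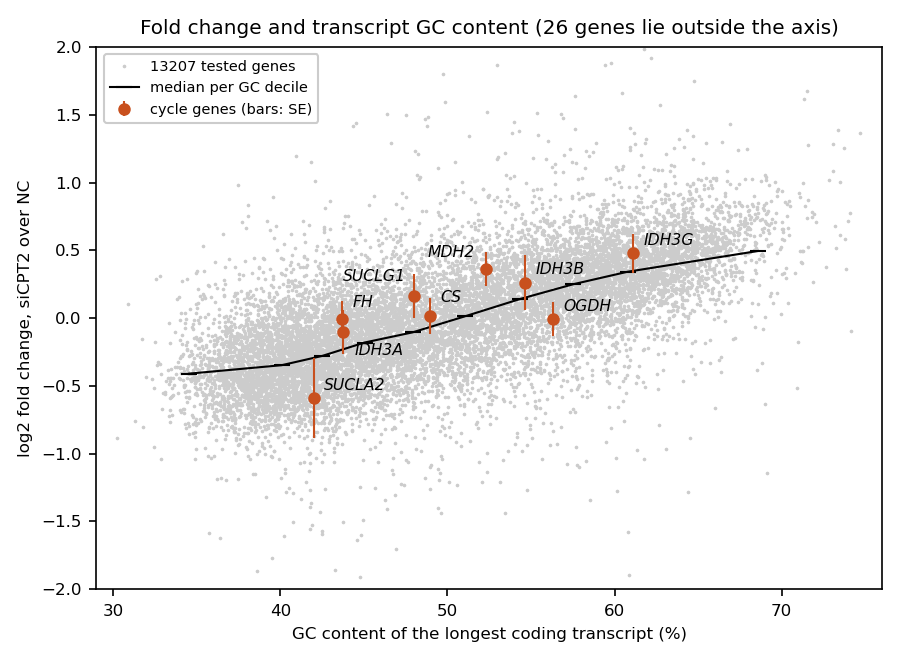
Log2 fold change, siCPT2 over NC, against the GC content of the longest coding transcript (%) for 13207 tested genes (grey), with the median per GC decile (line) and the 9 cycle genes (points, bars show SE). IDH3G lies near the line at high GC content, while MDH2 lies above it and SUCLA2 below; 26 genes fall outside the vertical axis.

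With offsets that remove each library's trend on GC content and transcript length, the log2 fold change of IDH3G was 0.056 (SE 0.11, edgeR unadjusted p = 0.613), that of IDH3B was -0.019 (SE 0.11) and that of IDH3A was 0.20 (SE 0.13), the last 2 with the opposite sign to the values as counted. MDH2 had 0.25 (SE 0.087, unadjusted p = 0.0173) and SUCLA2 -0.47 (SE 0.17, unadjusted p = 0.0233). These 2 of the 9 genes had an unadjusted p under 0.05, against 12.2% of all genes tested with the offsets, and neither passed after adjustment (0.385 for both). The trend-free values also kept the groups apart for 2 of the 9, MDH2 and SUCLA2, against 18.4% of all genes. By library, MDH2 then stood at 0.24, 0.28 and 0.20 against the NC mean in siCPT2 replicates 1, 2 and 3, and at 0.0067, -0.031 and 0.024 in NC replicates 1, 2 and 3. SUCLA2 stood at -1.03, -0.24 and -0.27 in siCPT2 and at -0.080, 0.088 and -0.0085 in NC. Replicate 1 of siCPT2 was again the lowest for SUCLA2, while MDH2 was much alike in the 3 siCPT2 libraries. IDH3G overlapped between the groups, with -0.098, 0.25 and -0.015 in siCPT2 against 0.0038, 0.096 and -0.0995 in NC.

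Leaving out siCPT2 replicate 1, 2 of the 9 genes had an unadjusted p under 0.05, against 10.1% of all tested genes. They were again IDH3G, with a log2 fold change of 0.36 (unadjusted 0.00953, adjusted p = 0.487 by edgeR), and MDH2, with 0.31 (unadjusted 0.0168, adjusted p = 0.487 by edgeR). With the offsets as well, IDH3G had 0.11, MDH2 0.24 and SUCLA2 -0.27, and the unadjusted p by edgeR was 0.305, 0.0185 and 0.0221. Of 9 genes listed for RNA quality, 5 were tested. Their median against the NC mean was -0.96, -0.098 and -0.33 in siCPT2 replicates 1, 2 and 3. The controls had -0.10, 0.19 and -0.10, in the same order. In siCPT2 replicate 1, 4 of these genes lay below all controls. SRRM2 went the other way there, with 1321 CPM against 890 to 1071 CPM in NC. The median log2 fold change of the 5 genes was -0.38 as counted and -0.17 with the offsets. Whether the list differs apart from the GC trend was not tested. The share of counts from the mitochondrial genome was 16.99%, 15.6% and 8.99% in siCPT2 and 10.002% to 10.8% in NC. The part of this list and of this share in the values of the cycle genes was not tested.

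**Figure D3:**
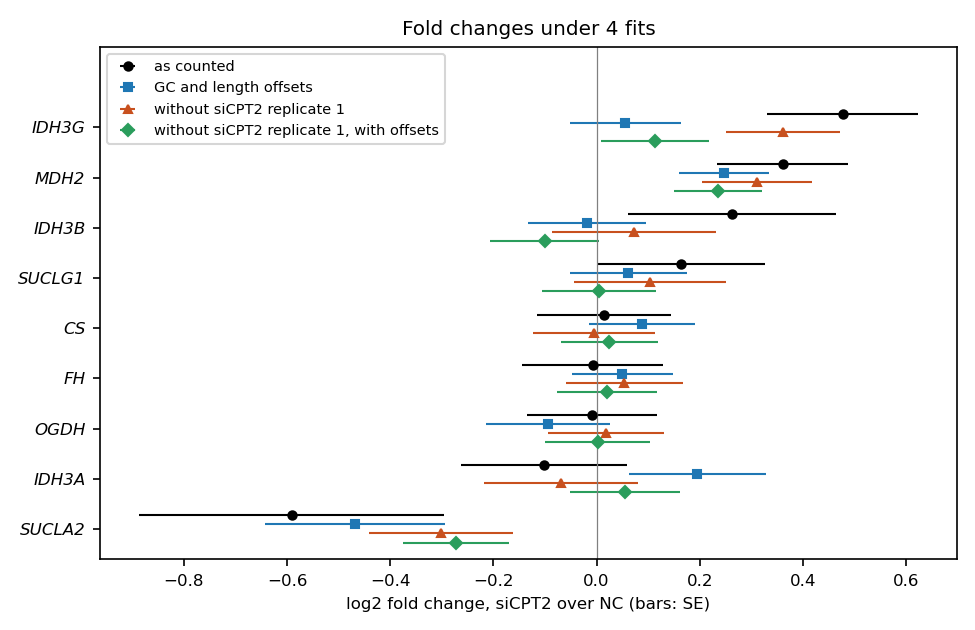
Log2 fold change, siCPT2 over NC, of the 9 cycle genes (horizontal axis, bars show SE) as counted, with GC and length offsets, without siCPT2 replicate 1, and with both. MDH2 stays between 0.24 and 0.36 and SUCLA2 between -0.59 and -0.27, while IDH3G runs from 0.48 as counted to 0.056 with the offsets.

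Levels between genes were compared per length, in the FPKM (fragments per kilobase of transcript, scaled to library size) that the authors deposited. In NC the order was FH (104.9 ± 2.93), OGDH (79.3 ± 3.49), MDH2 (64.3 ± 3.17), CS (61.6 ± 4.42), IDH3G (49.4 ± 1.90), SUCLG1 (42.9 ± 3.14), IDH3B (31.9 ± 3.23), SUCLA2 (22.7 ± 1.99) and IDH3A (17.8 ± 1.79), each in FPKM with SD, n = 3. MDH2 and CS overlapped, and every other pair of neighbours was separate in all 3 libraries. CPM per kilobase of the principal transcript gave the same order, but both scales divide by a transcript length, so this does not check the lengths. IDH3A, the catalytic subunit, thus had the lowest transcript level per length of the 9 genes, below both of its partner subunits. This place depends on its annotated transcript of 4128 bases, of which 2944 are 3' untranslated. The principal transcripts of IDH3B and IDH3G have 1545 and 1485 bases. In CPM, not divided by length, the NC means were 70.4 for IDH3A, 48.9 for IDH3B and 76.4 for IDH3G. Whether these cells use the full annotated length was not tested. In siCPT2 3 pairs of neighbours changed places: MDH2 (75.9 ± 3.13) stood above OGDH (73.1 ± 11.2), IDH3G (63.3 ± 0.914) above CS (55.7 ± 4.91) and IDH3A (14.9 ± 2.96) above SUCLA2 (14.1 ± 6.16). Of these, IDH3G and CS were separate in all 3 siCPT2 libraries, and the members of the other 2 pairs overlapped.

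**Figure D4:**
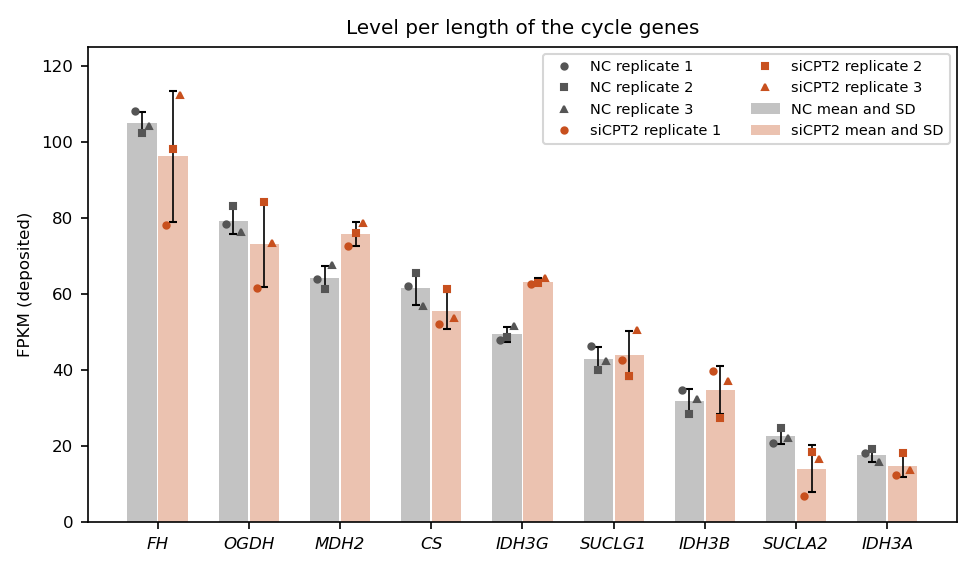
Deposited FPKM (vertical axis, from 0) of the 9 cycle genes, ordered by their NC mean. Bars show the mean and SD of each group and points the 3 libraries; FH is highest at 104.9 and IDH3A lowest at 17.8 in NC.

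Ratios of subunit genes of one enzyme were compared within libraries, which removes the scaling between libraries. Of 6 ratios, 3 did not overlap between the groups. The ratios share genes, and no such share was computed over other gene pairs, so this count has no background. Among single tested genes, 24.4% did not overlap. None of the ratios could pass, since an exact permutation test of 3 against 3 cannot go below p = 0.1. The SUCLA2 to SUCLG2 ratio, the ATP-forming over the GTP-forming beta subunit, was 0.914, 0.931 and 0.944 (CPM over CPM) in NC replicates 1 to 3. In siCPT2 replicates 1 to 3 it was 0.489, 0.860 and 0.830. The controls lay within a narrow band, and all siCPT2 libraries lay below it, replicate 1 most. The log2 difference was -0.40 (exact 2-sided permutation p = 0.1, adjusted over 6 ratios 0.2). Without siCPT2 replicate 1 it was -0.14. After removal of each library's GC and length trend it was -0.42.

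The IDH3A to IDH3G ratio was 0.937, 1.01 and 0.822 in NC and 0.508, 0.787 and 0.584 in siCPT2, a log2 difference of -0.58 (exact permutation p = 0.1, adjusted 0.2) without overlap. After that removal the difference was 0.13, the opposite sign. The IDH3B to IDH3G ratio was 0.682, 0.599 and 0.637 in NC and 0.596, 0.458 and 0.589 in siCPT2, only just without overlap. It differed by -0.23 on the log2 scale (exact permutation p = 0.1, adjusted 0.2) and by -0.078 after that removal. Taken from FPKM, the difference was -0.25 (exact permutation p = 0.3). SUCLA2 to SUCLG1 had -0.84, which came to -0.39 without siCPT2 replicate 1 and to -0.56 with the trend removed, and the groups overlapped. IDH3A to IDH3B had -0.35 with overlap, which came to -0.14 without that library and to 0.21, the opposite sign, with the trend removed. SUCLG2 to SUCLG1 had -0.44 with overlap, which came to -0.26 and -0.14.

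**Figure D5:**
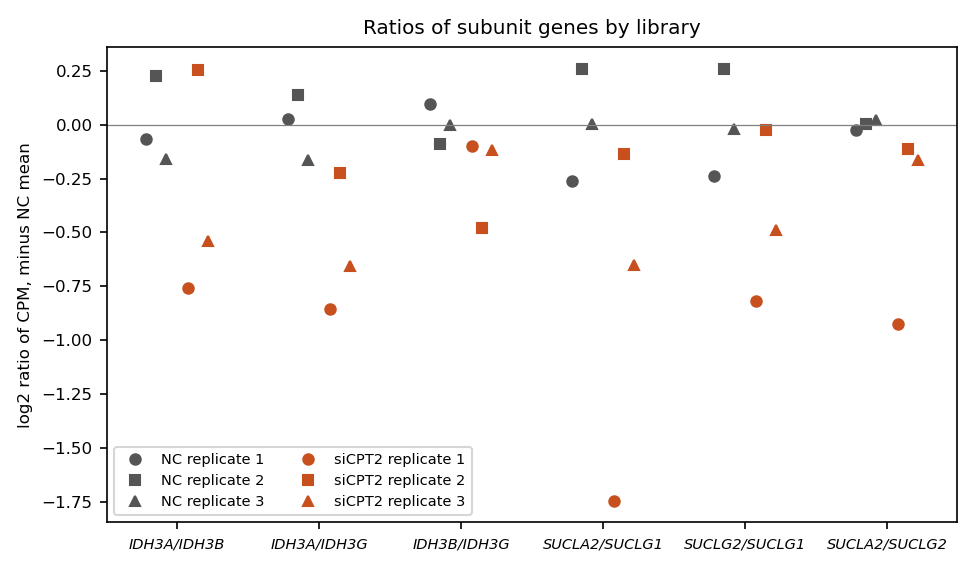
Log2 ratio of CPM of 2 subunit genes, minus the NC mean of that ratio (vertical axis), for 6 ratios and the 6 libraries. The SUCLA2/SUCLG2 ratio lies between -0.024 and 0.022 in NC and between -0.93 and -0.11 in siCPT2; siCPT2 replicate 1 is the lowest library in 5 of the 6 ratios.

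The other genes of the cycle, isoenzymes and related enzymes, lipoylation genes and carriers gave no called gene by edgeR or DESeq2. As counted, 1 of them, SLC25A1, had an edgeR unadjusted p under 0.05. With the offsets SLC25A1 had an unadjusted p of 0.877 by edgeR, and 4 others were under 0.05: MDH1 (0.0119), SDHC (0.0132), GLRX5 (0.0264) and ACLY (0.0484). Over all tested genes these shares were 14.5% as counted and 12.2% with the offsets, and none of the 4 passed (edgeR adjusted p 0.385 to 0.409). SDHC had a log2 fold change of 0.42 with the offsets against 0.0051 as counted, and the offsets took its transcript length as 13566 bases. Without siCPT2 replicate 1 and without offsets, SLC25A1 had a log2 fold change of 0.40. Of 9 listed other genes of the cycle, 5 were higher and 4 lower, none passed by edgeR, and the median log2 fold change was 0.0051. DLD, the dehydrogenase component that alpha-ketoglutarate dehydrogenase shares with pyruvate dehydrogenase, had 113 ± 2.30 CPM in NC and 86.4 ± 22.0 CPM in siCPT2 (log2 fold change -0.39, SE 0.20). With the offsets DLD had -0.026, and without siCPT2 replicate 1 it had -0.20. SDHD, a membrane anchor of succinate dehydrogenase, had -0.48 (SE 0.32) and -0.49 with the offsets. In siCPT2 replicates 1, 2 and 3 SDHD stood at 12.7, 29.4 and 33.8 CPM, and without replicate 1 its log2 fold change was -0.17 (-0.23 with the offsets).

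A list of 7 genes held isoenzymes and related enzymes that work outside the cycle or use its acids elsewhere. None passed by edgeR, 2 were higher and 5 lower, with a median of -0.12. ACLY, which splits cytosolic citrate into acetyl-CoA for lipid synthesis, had 253 ± 23.2 CPM in NC and 192 ± 44.2 CPM in siCPT2 without overlap (log2 fold change -0.40, SE 0.19, and -0.36 with the offsets). MDH1, the cytosolic counterpart of MDH2, had 177 ± 5.02 and 144 ± 27.4 CPM, also without overlap and on the other side from MDH2 (log2 fold change -0.30, SE 0.16, and -0.33 with the offsets). Without siCPT2 replicate 1 ACLY had -0.24 and MDH1 -0.17, and with the offsets as well -0.19 and -0.23. IDH2, the NADP-dependent mitochondrial isocitrate dehydrogenase, had 0.26 (SE 0.16), and IDH1, its cytosolic counterpart, -0.25 (SE 0.19). With the offsets these were 0.078 and -0.10, and without siCPT2 replicate 1 they were 0.19 and -0.087.

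Lipoylation, the attachment of lipoic acid that the DLST subunit needs, was represented by 6 genes. None passed by edgeR, 5 were higher and 1 lower, with a median of 0.20. GLRX5, an iron-sulphur cluster protein, had 22.1 ± 2.21 CPM in NC and 27.6 ± 3.38 CPM in siCPT2 without overlap (log2 fold change 0.32, SE 0.18, and 0.33 with the offsets). NFU1, which also delivers iron-sulphur clusters, had 0.27 (SE 0.19) and 0.30 with the offsets. LIPT2, at only 1.10 to 2.25 CPM, and LIPT1, both transferases of the lipoylation pathway, had 0.41 (SE 0.31) and 0.12 (SE 0.20). With the offsets these were -0.023 and 0.16, and without siCPT2 replicate 1 they were 0.26 and 0.16.

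Carriers that move cycle acids across the inner membrane comprised 6 tested genes of 7, with 3 higher, 3 lower and none passing by edgeR. SLC25A1, the citrate carrier, had 153 ± 16.9 CPM in NC and 227 ± 49.9 CPM in siCPT2 without overlap (log2 fold change 0.56, SE 0.19, edgeR unadjusted p = 0.0141), and 0.014 with the offsets. Its transcript has a GC content of 65.6%. SLC25A10 and SLC25A11, the dicarboxylate and oxoglutarate carriers, had 0.51 (SE 0.26) and 0.41 (SE 0.20), and -0.041 and 0.076 with the offsets. Without siCPT2 replicate 1 they had 0.23 and 0.33. SLC25A12, an aspartate-glutamate carrier of the malate-aspartate shuttle, had -0.36 (SE 0.23), -0.18 with the offsets and -0.18 without siCPT2 replicate 1.

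The median profile of the 9 genes over the 6 libraries, in log2 CPM centred per gene, ranged from -0.11 in NC replicate 3 to 0.15 in siCPT2 replicate 3. Single genes departed from it by a root mean square of 0.0996 (OGDH) to 0.56 (SUCLA2). Of 13152 tested genes with a symbol outside the lists used here, CCT5, USP2, EIF2B1 and CCZ1 were among the 5 nearest to it, at 0.0462 to 0.0525, against a median of 0.299 over those genes. CCZ1 has a near-identical copy in the genome, so its counts are uncertain.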

How the data were processed

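Counts per gene and library were deposited by the authors in 1 table, with FPKM values. It also holds the p-value and log2 fold change of their DESeq2 comparison, per the file headers. The headers do not say how the FPKM were computed. Between libraries, FPKM per count did not change by the same factor in all cycle genes, so counts and FPKM are not simple rescalings of each other. The submitters' processing notes name GRCh38, HISAT2, TopHat2, Bowtie2, StringTie, DESeq2 and edgeR without roles. Whether counting used strand: not given in the sources used here. Rows without a gene (17) were left out, and 4180 of 24154 genes are new loci of the authors.

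Counts were tested with edgeR 4.0.16 in R 4.3.3 (TMM factors, filterByExpr, robust quasi-likelihood test, NC against siCPT2, Benjamini-Hochberg over 15302 genes). CPM use the TMM library sizes. Offsets came from a loess trend (span 0.3) of each library on GC content and length of the longest coding transcript (GENCODE 29), for 13207 genes. Subunit ratios were tested with an exact 2-sided permutation test. Alternatives used DESeq2 1.42.0, limma 3.58.1, other scaling and filters, log2(FPKM + 1), a replicate block and each library left out. The fitting script was tested on simulated data.

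The members and lists were chosen with earlier results of these data known. Named genes are the 9 members, CPT2, up to 4 genes per list with the smallest unadjusted p, and the 5 genes nearest to the members' median profile. Overlapping genes and the other genes named beside a result were chosen after their values were seen. Some genes that this rule or an exon overlap selects are not reported here.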

Additional observations from a re-analysis of the deposited data

How the results depend on the processing

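Against 2 genes called over all genes, DESeq2 called 17, limma-voom 1, a filter of at least 5 CPM 1, log2(FPKM + 1) 0, and the fit with offsets but without siCPT2 replicate 1 (added after seeing the data) 4. Leaving out 1 library gave 1 to 5. Each gene's group mean was subtracted from its log2 CPM, and the deviations were correlated between NC and siCPT2 libraries. Same-numbered libraries had 0.25, 0.36 and 0.0065, and differently numbered ones -0.32 to 0.091. These values do not settle whether the numbers mark pairs. What the numbers mark is not stated, so the main fit did not use them and the block is an alternative. With the replicate block 633 genes and 0 cycle genes were called. With the replicate block and the offsets these were 478 genes and 1 cycle gene, SUCLA2 (-0.50, edgeR adjusted p = 0.0440). Cycle genes with an unadjusted p under 0.05 numbered 1 under library size alone (13.2% of all genes), 3 with no filter (13.3%), 3 with the replicate block (30.6%) and 1 to 4 with 1 library left out. They were 4 without siCPT2 replicate 2 (35.9% of all genes), 2 without siCPT2 replicate 1 (10.1%) or 3 (9.19%), and 1 without NC replicate 1 (8.47%), 2 (3.23%) or 3 (7.83%). Library size alone moved the median of all genes to -0.13.

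IDH3G (0.052 to 0.54), MDH2 (0.22 to 0.38), SUCLA2 (-0.82 to -0.27) and SUCLG1 (0.0053 to 0.27) kept their sign under all 18 alternatives. The other 5 had values of the opposite sign, and the cause was not tested. CS had -0.12 under library size alone, -0.14 on log2(FPKM + 1) and -0.039 to 0.062 with 1 library left out (-0.039 without NC replicate 3, -0.0057 and -0.028 without siCPT2 replicate 1 or 2). OGDH had 0.0020 with the 5 CPM filter and -0.079 to 0.027 with 1 library left out (0.027 without NC replicate 1, 0.019 and 0.018 without siCPT2 replicate 1 or 3). FH had 0.0017 with the 5 CPM filter, 0.050 with the offsets, 0.047 with block and offsets, and -0.095 to 0.054 with 1 library left out (0.032 without NC replicate 1, 0.054 without siCPT2 replicate 1). IDH3A had 0.20 with the offsets and 0.19 with block and offsets, and IDH3B -0.019 and -0.025. With offsets and without siCPT2 replicate 1, OGDH had 0.0023, FH 0.020, IDH3A 0.055 and IDH3B -0.10. With the trend removed (added after seeing the data), the ratios IDH3A to IDH3B and IDH3A to IDH3G turned to 0.21 and 0.13.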

Other observations

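One new locus of the deposited table, apart from the annotated CS gene, also carries the name CS in the table's annotation. It had 90, 82 and 19 counts in NC replicates 1, 2 and 3, and 91, 72 and 86 counts in siCPT2 replicates 1, 2 and 3. NC replicate 3 was the lowest, and these counts are not part of the CS values above.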
